A study of Mus musculus with 8 samples.

Results

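The 10 endothelial genes Pecam1, Cdh5, Plvap, Cldn5, Kdr, Flt1, Tek, Emcn, Vwf and Eng were followed in lumbar 4 and 5 dorsal root ganglia of mice after sciatic nerve axotomy. They were taken by symbol, as markers of vascular endothelium, from a table of 21878 gene symbols with FPKM values (fragments per kilobase of transcript, scaled to the mapped fragments of a library). All 10 were found, and all 10 passed the filter on low values, which 12884 genes passed. The animals were C57BL/6 mice whose Myh9 and Myh10, the genes of the non-muscle myosin IIA and IIB heavy chains, were floxed. In WT mice, as the sample names call them, the labels name no Cre, and dKO mice (Advillin-Cre:Myh9/10 double-floxed) also carried Cre driven by the Advillin gene, Avil, whose promoter works in sensory neurons. Ganglia were collected 3 days after sham surgery or axotomy, which the sample names call SNI, in 4 groups of 2 libraries, sham and SNI of each genotype. The labels do not tell whether both libraries of a group stem from different animals, and the tests thus rest on a spread between libraries that may be technical.

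Blood vessels of the dorsal root ganglion are lined by endothelial cells that, unlike those of the brain, form many fenestrated and permeable capillaries around the neuronal cell bodies. Endothelial cells hold to each other through VE-cadherin, PECAM-1 and claudins, receive growth signals through VEGF and angiopoietin receptors, and secrete von Willebrand factor for clotting. In fenestrated and sinusoidal vessels PLVAP forms the diaphragms that span openings of the wall. Nerve injury is known to bring immune cells to the ganglion and to change its vessels.

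The libraries were first checked against their labels. Myh9 measured 27.2 to 31.6 FPKM (WT sham) against 10.9 to 12.1 (dKO sham), and 29.7 to 30.8 (WT SNI) against 24.4 to 24.6 (dKO SNI). Myh10 was likewise lower in both dKO groups than in the WT group of the same surgery, without overlap. All 12 sensory neuron markers examined, such as Rbfox3 and Isl1, were present in every library, with summed levels of 2730 to 7406 FPKM. The 4 Y-linked genes Ddx3y, Eif2s3y, Kdm5d and Uty measured 2.10 to 17.8 FPKM in WT sham and dKO SNI and 0 to 0.0109 FPKM in WT SNI and dKO sham. Each comparison of 2 groups that differ in surgery or genotype alone therefore also differed in Y-linked transcripts, as did the difference of the 2 injury responses, and the part of that split in those results cannot be told apart from the named factor. In the mean of both injury responses, and in the mean of both genotype differences, the Y-linked transcripts are balanced, so these averaged contrasts are given first. A part of that split that differs between the genotypes would still remain in the averaged injury contrast. A part that differs between the surgeries would remain in the averaged genotype contrast, and neither was tested. WT sham 2 held skeletal muscle transcripts (Ckm 138 FPKM, where no other library exceeded 3.17 FPKM), and counts of calls among the 10 endothelial genes are given without it where that moves them by over 1.5 times.

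In GRCm38 (GENCODE M21) all 10 are annotated as protein-coding. Plvap (chromosome 8, 71497765 to 71511752, minus strand) overlaps Gtpbp3 on the opposite strand (at most 8.20 FPKM), and Eng (chromosome 2, 32646595 to 32682669, plus strand) overlaps Fpgs on the opposite strand (at most 4.40 FPKM). The sources used here do not say whether the libraries kept strand, so reads from these overlaps cannot be told apart. Cdh5 (chromosome 8, 104101625 to 104144511, plus strand) overlaps an annotated antisense RNA. The other positions are chromosome 11, 106654217 to 106750628 (minus) for Pecam1, chromosome 3, 137341067 to 137432185 (plus) for Emcn, chromosome 16, 18776847 to 18778262 (plus) for Cldn5 and chromosome 6, 125546774 to 125686679 (plus) for Vwf. The receptor genes are at chromosome 5, 75932827 to 75978458 (minus) for Kdr, chromosome 5, 147561604 to 147726011 (minus) for Flt1 and chromosome 4, 94739289 to 94874976 (plus) for Tek.

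Endothelial promoters are known for binding sites of ETS factors, whose core is GGAA. The 250 bases before the gene start were read from RefSeq (GRCm38.p6) for the 6 genes matched there, Eng, Emcn, Tek, Kdr, Flt1 and Cldn5, and searched on both strands for AGGAAG, which occurs in 29.5% of 32851 such windows of all genes. It was found in 3 of the 6, with 2 matches each in Eng, Emcn and Flt1, and its letters are not in the windows of Tek, Kdr and Cldn5. The shorter core GGAA (TTCC on the other strand) was not counted and does occur in the Kdr window, so a window without AGGAAG may still hold ETS sites. Emcn and Eng, which rose after axotomy in the tests given further on, and Flt1 and Kdr, which did not pass, are shown to let the 2 kinds be read side by side, 5′ to 3′ with matches in capitals (CTTCCT is the motif on the other strand), from chr3:137340828-137341077 (plus), chr2:32646345-32646594 (plus), chr5:147726012-147726261 (minus) and chr5:75978456-75978705 (minus).
Emcn: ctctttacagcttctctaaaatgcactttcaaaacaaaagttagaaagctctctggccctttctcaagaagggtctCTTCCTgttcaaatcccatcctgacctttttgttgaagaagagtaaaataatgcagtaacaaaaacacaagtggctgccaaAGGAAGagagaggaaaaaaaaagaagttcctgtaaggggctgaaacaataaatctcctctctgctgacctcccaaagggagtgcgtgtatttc
Eng: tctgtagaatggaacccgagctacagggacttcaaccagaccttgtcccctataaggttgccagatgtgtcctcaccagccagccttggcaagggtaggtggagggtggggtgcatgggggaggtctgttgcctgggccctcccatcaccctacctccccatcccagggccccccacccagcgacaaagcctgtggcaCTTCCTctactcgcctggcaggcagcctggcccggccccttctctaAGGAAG
Flt1: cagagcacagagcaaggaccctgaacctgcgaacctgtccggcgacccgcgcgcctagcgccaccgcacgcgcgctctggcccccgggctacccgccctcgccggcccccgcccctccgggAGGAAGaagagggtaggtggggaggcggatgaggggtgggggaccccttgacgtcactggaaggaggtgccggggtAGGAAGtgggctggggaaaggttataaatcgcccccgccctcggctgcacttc
Kdr: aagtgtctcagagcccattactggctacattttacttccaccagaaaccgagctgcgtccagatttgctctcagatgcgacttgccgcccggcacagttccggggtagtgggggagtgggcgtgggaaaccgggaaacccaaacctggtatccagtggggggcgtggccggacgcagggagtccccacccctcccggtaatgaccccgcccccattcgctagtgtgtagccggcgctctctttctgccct
The Emcn matches begin 174 and 93 bases before the RefSeq gene start, those of Eng 52 and 6 bases and those of Flt1 129 and 53 bases. For Emcn and Kdr the RefSeq start lies slightly inside the GENCODE span given above. The Emcn window holds 40.8% G and C, against 61.6% in Kdr, 62.4% in Eng and 70.4% in Flt1, where the median window of all genes holds 52.4%. The motif was present in genes that rose and in a gene that did not pass, and a match is a description of the letters only.

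Levels of the 10 genes were low to moderate. Cldn5 had the highest mean over the 8 libraries (14.7 FPKM, above 72.0% of the tested genes), followed by Plvap (12.3 FPKM), Emcn (10.2 FPKM), Pecam1 (5.43 FPKM), Eng (5.15 FPKM), Cdh5 (3.98 FPKM), Vwf (3.96 FPKM), Tek (1.72 FPKM), Kdr (1.54 FPKM) and Flt1 (1.41 FPKM, above 9.85% of the tested genes). Neighbours in that order overlapped in their ranges over libraries. The lowest Cldn5 value (11.3 FPKM) lay above the highest Pecam1 value (8.31 FPKM), and the highest Kdr and Flt1 values (1.74 and 2.02 FPKM) lay below the lowest Vwf value (2.26 FPKM). These are levels per transcript length, and read totals are unknown, so the counting error of Tek, Kdr and Flt1, the 3 lowest, cannot be given.

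After axotomy, averaged over the genotypes, 6 of the 10 endothelial genes rose and none fell (limma, adjusted p under 0.05 over all genes). The risers were Vwf, Plvap, Emcn, Pecam1, Eng and Cdh5, and Cldn5, Tek, Kdr and Flt1 did not pass the threshold. Among all 12884 genes 29.5% passed as higher and 25.5% as lower in the same contrast, so that 53.7% of its calls were higher (38.9% after rescaling to TPM, where 5 of the 10 endothelial genes rose). The median change of the 10 genes was 0.46 on the log2(FPKM + 1) scale, and that of all genes was 0.04. In dKO ganglia, averaged over the surgeries, 4 of the 10 (Plvap, Emcn, Pecam1 and Cdh5) were higher than in WT ganglia and none was lower, where 11.8% of all genes passed as higher and 10.4% as lower (53.1% of calls higher, and 34.9% after rescaling to TPM, where 2 of the 10 endothelial genes were called). The median genotype difference was 0.28 for the 10 genes and 0.01 for all genes. In whole ganglia, more endothelial cells and more RNA per endothelial cell cannot be told apart. Nor can either be told apart from a smaller share of RNA from other cells, such as neurons. The same holds for RNA of other cells that carry some of these genes.

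**Figure D1:**
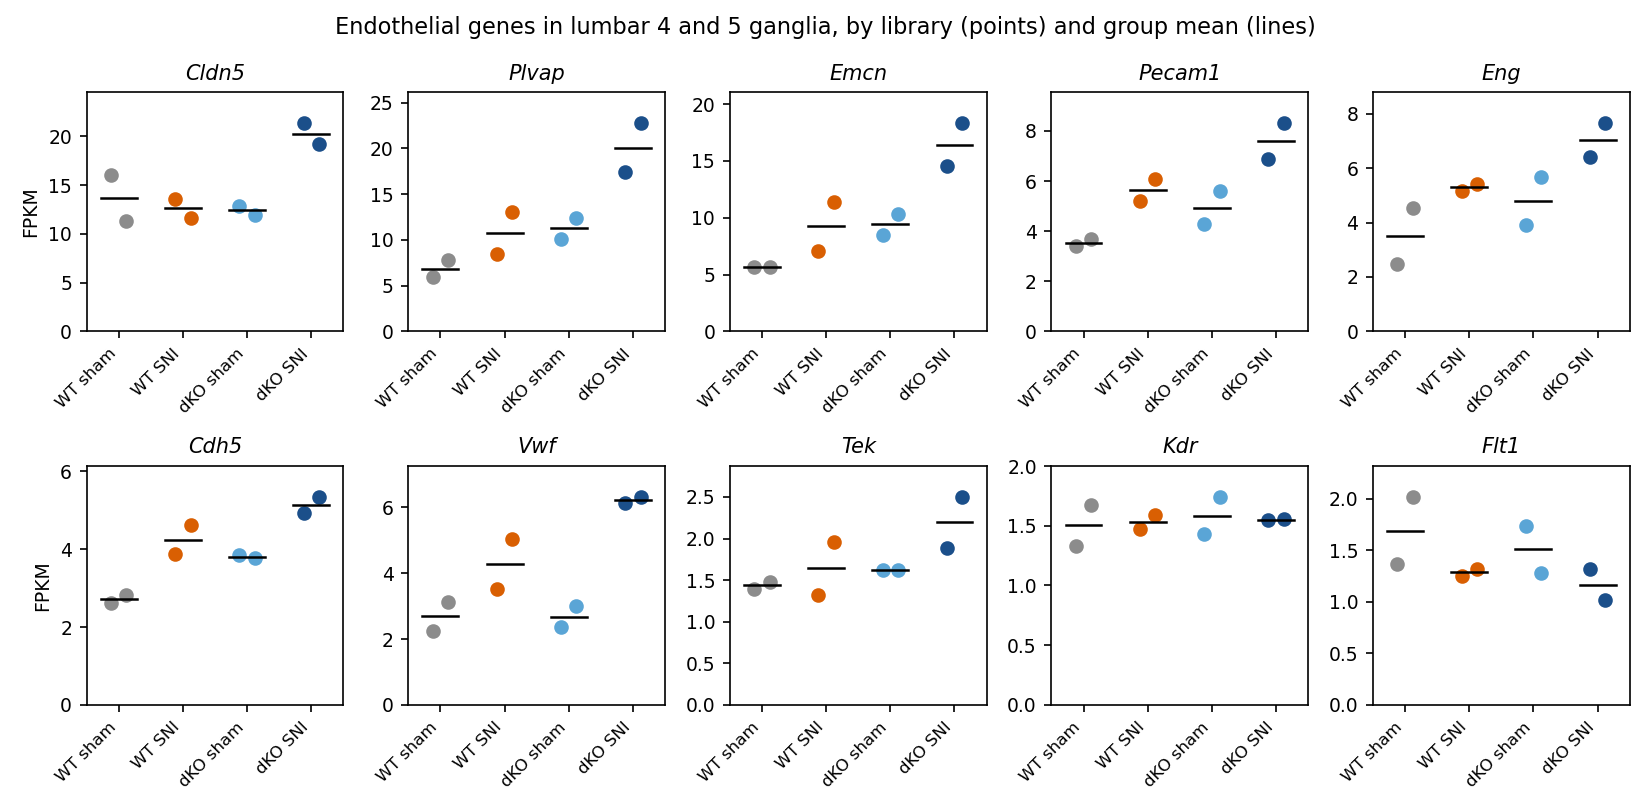
FPKM of each endothelial gene (vertical axis, from 0) in the 4 groups (horizontal axis), with 2 points for the 2 libraries of a group and a line at their mean. Plvap, Emcn, Pecam1, Eng, Cdh5 and Vwf were highest in the dKO SNI libraries, while Kdr stayed between 1.33 and 1.74 FPKM in all 8 libraries.

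**Figure D2:**
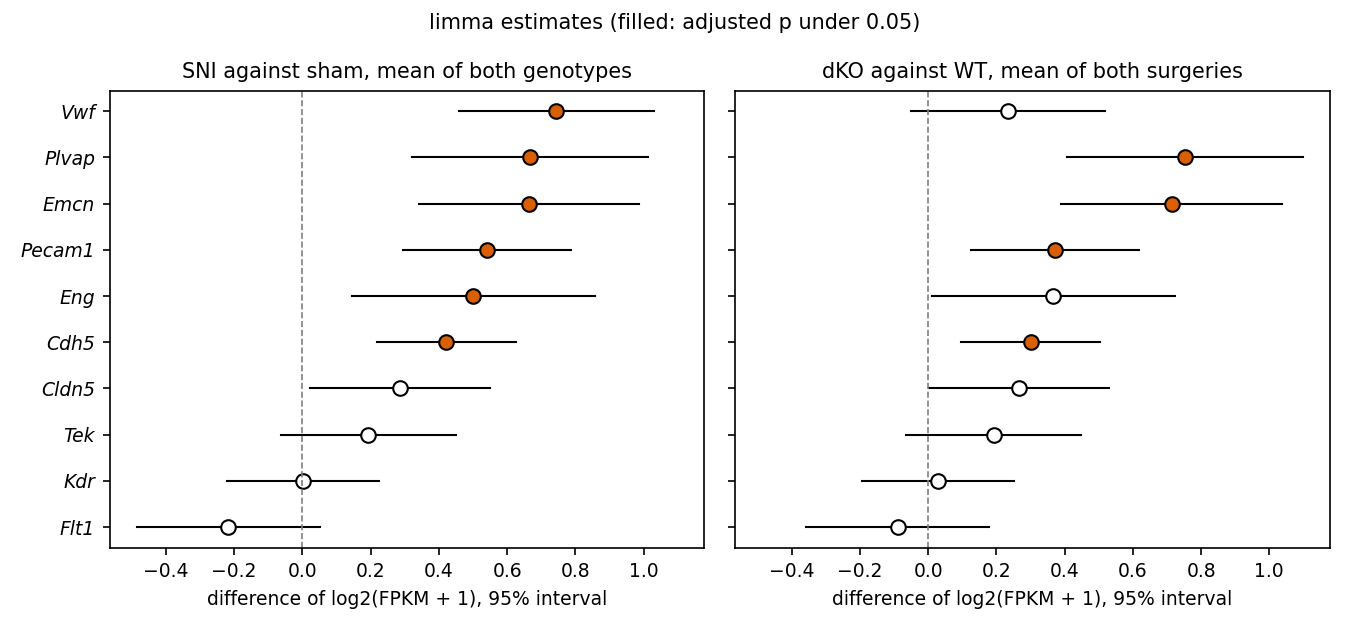
Change of each gene (horizontal axis, difference of log2(FPKM + 1) with its 95% interval from limma) after axotomy averaged over genotypes, left, and in dKO against WT averaged over surgeries, right. Filled points passed an adjusted p of 0.05, which were 6 genes on the left and 4 on the right.

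Plvap and Emcn had the largest genotype differences and large injury responses. Plvap encodes the plasmalemma vesicle-associated protein of the fenestral diaphragm. Plvap levels in FPKM were 5.93 and 7.83 (WT sham), 8.47 and 13.1 (WT SNI), 10.1 and 12.4 (dKO sham) and 17.4 and 22.8 (dKO SNI). Both dKO SNI libraries lay above all others, WT sham was lowest, and WT SNI 2 lay above both dKO sham libraries while WT SNI 1 lay below them. Its change was 0.67 ± 0.15 (SE) after axotomy (adjusted p 0.0053) and 0.75 ± 0.15 in dKO against WT (adjusted p 0.0158), both averaged. Emcn encodes endomucin, a sialomucin of capillary and venous endothelium. Emcn levels in FPKM were 5.70 and 5.63 (WT sham), 7.11 and 11.4 (WT SNI), 8.49 and 10.4 (dKO sham) and 14.5 and 18.3 (dKO SNI). The order of the libraries was close to that of Plvap, with the 2 WT SNI libraries again on either side of dKO sham. The averaged changes of Emcn were 0.66 ± 0.14 after axotomy (adjusted p 0.00391) and 0.71 ± 0.14 in dKO (adjusted p 0.0156).

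Vwf, which encodes the von Willebrand factor stored in endothelial granules and in platelets, had the largest averaged injury change of the 10. Vwf levels in FPKM were 2.26 and 3.12 (WT sham), 3.53 and 5.02 (WT SNI), 2.36 and 3.00 (dKO sham) and 6.12 and 6.32 (dKO SNI). All 4 SNI libraries lay above all 4 sham libraries, which held for 2 of the 10 genes, Vwf and Cdh5, and for 34.7% of all genes in either direction. The averaged injury change was 0.74 ± 0.13 (adjusted p 0.00106). Between the sham groups its means were 2.69 ± 0.61 FPKM in WT and 2.68 ± 0.45 FPKM in dKO (SD, n = 2). The averaged genotype difference of Vwf (0.23 ± 0.13, adjusted p 0.197) did not pass the threshold.

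Both junctional genes Cdh5 and Pecam1 rose after axotomy and were higher in dKO in the averaged contrasts. Cdh5 encodes VE-cadherin, the cadherin of endothelial adherens junctions. Cdh5 levels in FPKM were 2.62 and 2.82 (WT sham), 3.88 and 4.61 (WT SNI), 3.84 and 3.78 (dKO sham) and 4.92 and 5.35 (dKO SNI). No 2 groups overlapped for Cdh5: WT sham was lowest, then dKO sham, then WT SNI just above it, and dKO SNI was highest. Its averaged changes were 0.42 ± 0.09 after axotomy (adjusted p 0.00377) and 0.30 ± 0.09 in dKO (adjusted p 0.0434). Pecam1 encodes an adhesion molecule of endothelial junctions that platelets and leukocytes also carry. Pecam1 levels in FPKM were 3.40 and 3.68 (WT sham), 5.21 and 6.10 (WT SNI), 4.28 and 5.60 (dKO sham) and 6.86 and 8.31 (dKO SNI). WT sham was lowest and dKO SNI highest, and WT SNI and dKO sham overlapped. Its averaged changes were 0.54 ± 0.11 after axotomy (adjusted p 0.0027) and 0.37 ± 0.11 in dKO (adjusted p 0.0399).

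Cldn5, the claudin of endothelial tight junctions, had another order. Cldn5 levels in FPKM were 16.0 and 11.3 (WT sham), 13.6 and 11.7 (WT SNI), 12.8 and 12.0 (dKO sham) and 21.3 and 19.2 (dKO SNI). The first 3 groups overlapped, and only the dKO SNI libraries stood above them. Cldn5 was higher in dKO SNI than in dKO sham (0.66 ± 0.17, adjusted p 0.00972) and than in WT SNI (0.64 ± 0.17, adjusted p 0.0251). Averaged over genotypes, its injury change of 0.29 ± 0.12 did not pass (limma, adjusted p 0.0639). With each library left out this averaged change ran from 0.17 to 0.40, so it depended on single libraries. The WT injury change was -0.09 ± 0.17 (adjusted p 0.72). The difference of the 2 injury responses was 0.75 ± 0.24, with an unadjusted p of 0.0102 and an adjusted p of 0.273, and so did not pass the threshold over all genes (limma).

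The receptor genes Kdr, Flt1 and Tek showed no change past the threshold in the averaged contrasts, while the co-receptor gene Eng rose after axotomy. Kdr encodes VEGFR2, the main signalling receptor for VEGF-A in endothelium. Kdr levels in FPKM were 1.33 and 1.68 (WT sham), 1.47 and 1.59 (WT SNI), 1.43 and 1.74 (dKO sham) and 1.55 and 1.55 (dKO SNI), and all groups overlapped. Its averaged injury change was 0.00 ± 0.10 with a 95% interval of -0.22 to 0.22, and its averaged genotype difference was 0.03 ± 0.10 (-0.19 to 0.25). Flt1 encodes VEGFR1, which binds VEGF-A tightly and also occurs as a soluble decoy. Flt1 levels in FPKM were 1.36 and 2.02 (WT sham), 1.25 and 1.32 (WT SNI), 1.74 and 1.28 (dKO sham) and 1.31 and 1.02 (dKO SNI). WT SNI lay below WT sham while the dKO groups overlapped, and the averaged injury change was -0.22 ± 0.12 (95% interval -0.49 to 0.05, adjusted p 0.149). Under quantile normalization the value was -0.39 and passed the threshold (adjusted p 0.0192). Tek encodes TIE2, the receptor for angiopoietins. Tek levels in FPKM were 1.39 and 1.48 (WT sham), 1.32 and 1.96 (WT SNI), 1.62 and 1.62 (dKO sham) and 1.89 and 2.50 (dKO SNI), with the WT groups overlapping and dKO SNI above dKO sham. Its averaged injury change was 0.19 ± 0.11 (95% interval -0.06 to 0.45, adjusted p 0.178). Eng encodes endoglin, a co-receptor for BMP and TGF-beta ligands that activated macrophages also carry. Eng levels in FPKM were 2.48 and 4.53 (WT sham), 5.17 and 5.41 (WT SNI), 3.92 and 5.68 (dKO sham) and 6.40 and 7.65 (dKO SNI). SNI lay above sham in each genotype. The averaged injury change of Eng was 0.50 ± 0.16 (adjusted p 0.0234), and the call was lost without WT sham 1, WT SNI 2, dKO sham 1 or dKO SNI 2 (adjusted p up to 0.086 over all libraries left out).

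Kdr and Flt1 were also set against Cdh5 in the same library. The ratio of Kdr to Cdh5 FPKM was 0.509 and 0.596 (WT sham), 0.380 and 0.345 (WT SNI), 0.372 and 0.461 (dKO sham) and 0.314 and 0.290 (dKO SNI). The ratio of Flt1 to Cdh5 was 0.339 to 0.718 in the 4 sham libraries and 0.190 to 0.323 in the 4 SNI libraries. By contrast Pecam1 and Cdh5 kept a ratio of 1.12 to 1.55 over all 8 libraries, and the ratio of Plvap to Cdh5 was 2.18 to 3.29 outside dKO SNI and 3.54 and 4.25 in dKO SNI. These ratios were chosen after the values were seen and are a description with no test. Cdh5 was itself higher in every SNI library than in every sham library, so a gene with level values, such as Kdr, has a lower ratio to it after axotomy by arithmetic.

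**Figure D3:**
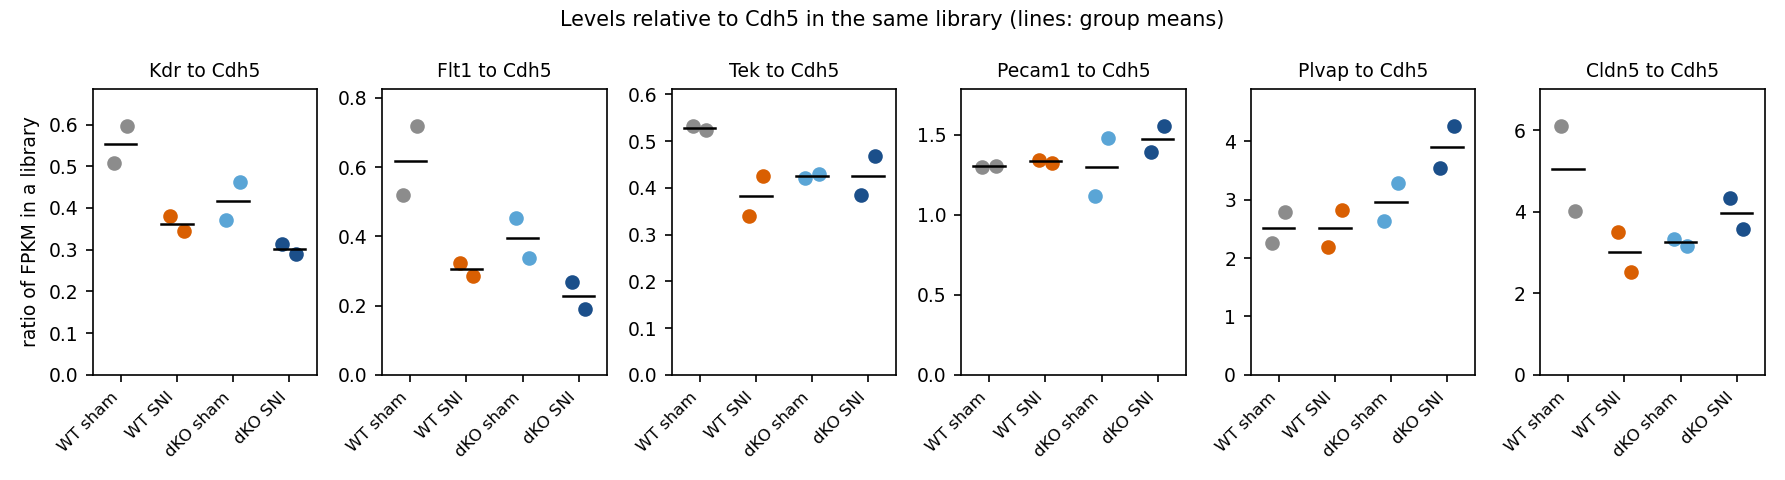
Ratio of the FPKM of 6 endothelial genes to that of Cdh5 in the same library (vertical axes, from 0), by group, with 2 points a group and a line at the mean. The ratio of Flt1 to Cdh5 was at most 0.323 in the SNI libraries and at least 0.339 in the sham libraries, while that of Pecam1 stayed between 1.12 and 1.55.

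Within single genotypes fewer of the endothelial genes passed in WT than in dKO ganglia. In WT SNI against WT sham 2 of the 10 genes rose, Pecam1 (0.55 ± 0.15, adjusted p 0.0319) and Cdh5 (0.49 ± 0.13, adjusted p 0.0242), where 13.6% of all genes passed as higher. Emcn (0.59 ± 0.20), Plvap (0.56 ± 0.22), Eng (0.52 ± 0.22) and Vwf (0.51 ± 0.18) had changes of like size and adjusted p of 0.0637 to 0.121. The count was 0 without WT sham 1 or WT SNI 2, 1 without WT sham 2 and 5 without WT SNI 1, the WT SNI library with the lower value of these 6 genes. In dKO SNI against dKO sham 6 of the 10 genes rose, where 23.8% of all genes passed as higher. They were Vwf (0.98 ± 0.18), Plvap (0.77 ± 0.22), Emcn (0.74 ± 0.20), Cldn5 (0.66 ± 0.17), Pecam1 (0.54 ± 0.15) and Cdh5 (0.35 ± 0.13), with adjusted p of 0.00211 to 0.0471. Eng changed by 0.48 ± 0.22 on this scale and did not pass (adjusted p 0.103). The dKO count was 2 without dKO sham 1 or dKO SNI 2. Without regard to any test, both WT SNI libraries lay above both WT sham libraries for 6 genes and below them for Flt1, where 69% of all genes fell apart in either direction, and the dKO libraries fell apart upward for 8 genes, where 75.5% of all genes did so in either direction. No gene of the 10 passed a test of the difference between the injury responses (0 of 10 adjusted by limma, also with robust moderation, and 1 of 10, Cldn5, at an unadjusted p under 0.05), where 0.0543% of all genes passed adjusted and 14.5% unadjusted, so a difference between the genotypes in their response was not shown for any of them. For Vwf that difference was 0.47 ± 0.25 (adjusted p 0.406).

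Between genotypes 3 of the 10 endothelial genes passed after axotomy and none after sham surgery, and the difference of those contrasts is the same one for which no gene passed. In dKO SNI against WT SNI 3 of the 10 were higher, Plvap (0.86 ± 0.22, adjusted p 0.0237), Emcn (0.79 ± 0.20, adjusted p 0.0251) and Cldn5, where 10.7% of all genes passed as higher. Pecam1 (0.37 ± 0.15) and Vwf (0.47 ± 0.18) did not pass (adjusted p 0.11 and 0.0827). That count was 0 without WT SNI 1 or dKO SNI 2, where the count over all 12884 genes also dropped to 10 and 9, and it was 0 without the filter on low values. In dKO sham against WT sham none of the 10 passed by limma, 4 of the 10 had an unadjusted p under 0.05 (10.8% of all genes did), and 0.0931% of all genes passed as higher. Plvap (0.65 ± 0.22) and Emcn (0.64 ± 0.20) had sham differences close to those after injury, with adjusted p of 0.346 and 0.319. The dKO sham libraries lay above both WT sham libraries for 5 genes (Pecam1, Cdh5, Plvap, Emcn and Tek), where 46.1% of all genes fell apart in either direction. After axotomy the dKO libraries lay above the WT libraries for 7 genes (background 68.3%), and for none of the 10 did all 4 dKO libraries lie above or below all 4 WT libraries (background 3.32%). The averaged genotype count of 4 fell to 2 without WT sham 1, to 1 without WT sham 2 or WT SNI 1, to 0 without dKO sham 2 or dKO SNI 2, and to 1 where genes with low values were kept. The averaged genotype differences of Eng (0.37 ± 0.16), Cldn5 (0.27 ± 0.12), Tek (0.19 ± 0.11) and Flt1 (-0.09 ± 0.12) had adjusted p of 0.118 to 0.605. The comparisons share groups, so their values for a gene are not independent.

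Other pan-endothelial genes were taken from a list of 30, of which 29 were tested. After axotomy, averaged over genotypes, 10 of the 29 rose and 1, Epas1, fell, with a median change of 0.24. Over all genes 29.5% rose and 25.5% fell in this contrast, so the share that rose was near the background and the share that fell was below it. Cd93, a lectin-like receptor of endothelium and myeloid cells, had the smallest adjusted p and rose (0.92 ± 0.10, adjusted p 7.6e-05), from 1.07 and 1.17 FPKM (WT sham) and 1.69 and 1.80 (dKO sham) to 2.79 and 3.21 (WT SNI) and 3.82 and 4.57 (dKO SNI). The endothelial guanine nucleotide exchange factor Arhgef15 rose by 0.88 ± 0.10, the transcription factor Sox7 by 0.57 ± 0.11 and the surface antigen Ly6c1, which monocytes also carry, by 1.08 ± 0.23. Tal1, a factor of endothelial and blood precursors, rose by 0.93 ± 0.21. Many of the list's genes did not pass: Tie1, the partner of TIE2, measured 1.51 to 2.50 FPKM (0.23, adjusted p 0.057), the endothelial factor Erg 0.80 to 2.15 FPKM (0.35, adjusted p 0.055) and the junction protein Esam 3.84 to 7.91 FPKM (-0.13, adjusted p 0.51). In dKO against WT 4 of the 29 were higher and none lower (median 0.20), a share near the 11.8% of all genes called higher, and 1 of the 29 was called higher under quantile normalization. Among them were Ly6c1 (0.91 ± 0.23), Tal1 (0.73 ± 0.21) and Cd93 (0.38 ± 0.10).

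**Figure D4:**
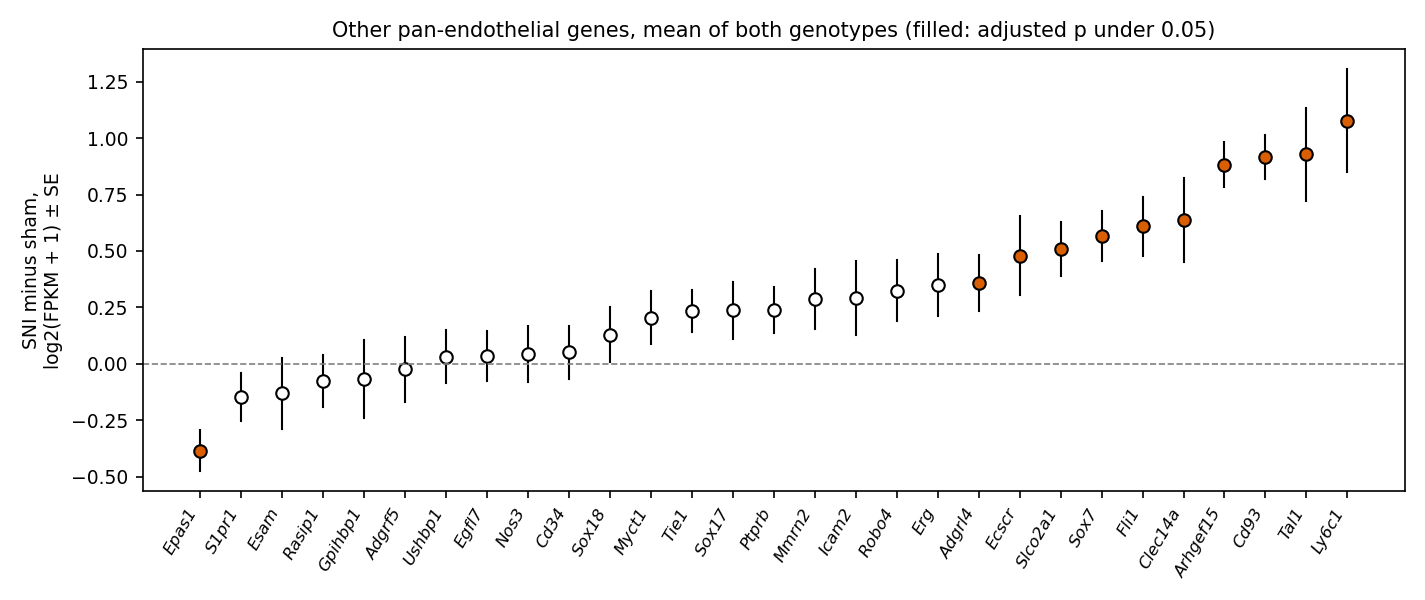
Change after axotomy averaged over genotypes (vertical axis, difference of log2(FPKM + 1), bars are the standard error from limma) for the 29 tested genes of the other pan-endothelial list, ordered by size. Filled points passed an adjusted p of 0.05, which were 10 genes above 0 and Epas1 below 0.

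Of 12 VEGF, angiopoietin and related ligands 11 were found (Figf was not matched) and 8 were tested, of which 2 rose and 1 fell in the averaged injury contrast (median 0.14, and -0.06 under quantile normalization). Both shares were below those of all genes (29.5% higher and 25.5% lower), and the calls were 2 higher and 2 lower under median centring or quantile normalization and 2 higher and 3 lower after rescaling to TPM. Vegfa, which encodes the ligand of both VEGF receptors, measured 12.3 and 15.03 FPKM (WT sham), 11.5 and 10.6 (WT SNI), 16.9 and 16.1 (dKO sham) and 14.6 and 16.7 (dKO SNI). Its injury change was -0.18 (adjusted p 0.15) and it was higher in dKO (0.36, adjusted p 0.031). Vegfb, a ligand of Flt1, fell by 0.58 after axotomy (adjusted p 0.0024), from 18.2 to 21.5 FPKM in the sham libraries to 11.1 to 15.03 FPKM in the SNI libraries. Angptl4, an inhibitor of lipoprotein lipase, rose by 0.71 and was higher in dKO by 0.49, both averaged. It measured 5.17 and 5.09 FPKM in WT sham and 10.8 to 17.5 FPKM in the other 6 libraries. Its injury change passed in WT (1.27, limma adjusted p 0.0021) but not in dKO (0.16, adjusted p 0.52). The genotype difference of Angptl4 was 1.05 after sham surgery (adjusted p 0.082) and -0.07 after SNI (adjusted p 0.81), neither passing. The difference of its injury responses did not pass (-1.12, adjusted p 0.218). Bmp6 rose by 0.64. The TIE2 ligands Angpt1 (0.833 to 1.33 FPKM) and Angpt2 (3.53 to 6.91 FPKM) did not pass in either averaged contrast, although Angpt2 rose in WT ganglia (0.51, adjusted p 0.0474, against -0.09 and adjusted p 0.68 in dKO), and the difference of these responses did not pass (-0.60, adjusted p 0.299). Pgf (-0.33, adjusted p 0.053) and Fgf2 (0.27, adjusted p 0.14) did not pass after axotomy. Vegfc, Apln and Pdgfb did not pass the filter on low values.

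Of 13 tested co-receptors and modulators of vessel growth 2 rose and 6 fell after axotomy (median -0.10), where 29.5% of all genes rose and 25.5% fell. The activin receptor-like kinase Acvrl1, which signals with endoglin, rose by 0.64, and the TGF-beta receptor Tgfbr2 by 0.77. In WT alone Acvrl1 did not pass (0.32, limma adjusted p 0.158), against 0.96 in dKO, where it passed. The difference of these Acvrl1 responses did not pass (0.64, adjusted p 0.28). The Notch ligand Jag2 fell by 1.04, the netrin receptor Unc5b by 0.92 and the semaphorin receptor Plxnd1 by 0.65. Of 6 tested genes of sprouting tip cells Plaur (1.85), Cxcr4 (1.04) and Nid2 (0.65) rose, Unc5b fell, and Esm1, an endothelial proteoglycan, measured 0.303 to 1.59 FPKM with no call after axotomy (0.12, adjusted p 0.49) but was higher in dKO (0.60, adjusted p 0.02). Dll4 and Kcne3, which mark tip cells, stayed under 1 FPKM in every library. Plaur and Cxcr4 are also expressed by myeloid cells, and the part of these in the result was not tested. Of 12 sensory neuron markers 10 fell in the same contrast. Whether Jag2, Unc5b and Plxnd1 fell in endothelium or in other cells was not tested.

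Barrier, activation and vessel-type genes were read from lists of their own. Of 14 tested barrier genes 6 rose and 1 fell after axotomy (median 0.22), where 29.5% of all genes rose and 25.5% fell, and 5 rose and 3 fell under quantile normalization or after rescaling to TPM. The glucose transporter Slc2a1 rose by 0.72, the amino acid transporter Slc7a5 by 0.51, the organic anion transporter Slco1a4 by 0.49 and Itm2a by 0.77, while the lipid transporter Mfsd2a fell by 0.42. In WT alone Slc7a5 (0.49), Slco1a4 (0.22) and Mfsd2a (-0.08) did not pass, against 0.54, 0.76 and -0.76 in dKO, where they passed. Averaged over genotypes, 6 of 8 tested activation genes rose and none fell (median 0.74, and 5 rose and 1 fell under quantile normalization), with the leukocyte adhesion molecules Icam1 (0.95) and Vcam1 (0.93) and the secreted glycoprotein Lrg1 (2.07, higher in dKO by 0.75) among them. E-selectin (Sele) was at most 0.0717 FPKM in any library. Of 7 tested arterial genes 1, Bmx (0.36), rose and 3 fell, Hey1 (-0.48), Sema3g (-0.36) and Efnb2 (-0.34), while no arterial gene rose under quantile normalization or after rescaling to TPM. In WT alone no arterial gene passed (Bmx -0.07), and in dKO Bmx rose (0.79) and 4 fell. No barrier or arterial gene passed in the difference of the injury responses. Averaged over genotypes, 4 of 5 tested venous genes rose, Vcam1, Slc38a5 (0.66), Ephb4 (0.50) and Nr2f2 (0.32), and none fell (3 rose under quantile normalization or after rescaling to TPM). In WT alone only 1 venous gene, Vcam1, passed, and in dKO 3 passed as higher, Vcam1, Slc38a5 and Ephb4. No venous gene passed in the difference of the injury responses. A difference between the arterial and venous lists was not tested, and they share genes with the other lists (Vcam1, Slc38a5, Hey1 and Ackr1 among those tested). Ackr1, the chemokine-binding receptor of venules, was the tested venous gene that did not pass (48.5 to 77.1 FPKM, adjusted p 0.999). Of 4 tested lymphatic genes Lyve1 (1.62) and Ccl21a (0.87) rose and none fell (1 fell under quantile normalization or after rescaling to TPM), while Prox1, the defining factor of lymphatic endothelium, was at most 0.133 FPKM. Pdpn, with no call when averaged (0.09), rose in WT (0.52, adjusted p 0.0181) and fell in dKO (-0.35, adjusted p 0.0454). The difference of these responses did not pass (-0.87, adjusted p 0.197). All 16 macrophage markers also rose after axotomy, and the part of other cell types in the activation and lymphatic results was not tested.

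Markers of other cell types moved in the same libraries. The summed level of the 10 endothelial genes in FPKM was 42.5 and 44.1 (WT sham), 51.0 and 62.2 (WT SNI), 50.6 and 57.5 (dKO sham) and 82.3 and 92.9 (dKO SNI). All 16 macrophage markers rose after axotomy, with sums of 189 to 347 FPKM in the sham libraries and 784 to 1834 FPKM in the SNI libraries, and Mrc1, also found on some endothelia, rose by 2.73. All 10 fibroblast markers rose (218 to 580 FPKM summed in sham, 583 to 1403 FPKM in SNI). Of 12 sensory neuron markers 10 fell and none rose. Of 11 tested pericyte and smooth muscle genes 4 rose (Acta2, Tagln, Myh11 and Vtn) and none fell, near the 29.5% of all genes that rose, while 2 rose and none fell under quantile normalization and 2 rose and 1 fell after rescaling to TPM. Their list had sums of 113 to 133 FPKM over all libraries, and the pericyte receptor Pdgfrb measured 4.14 to 5.68 FPKM. The sum of WT sham 2, the library with skeletal muscle transcripts, included Des at 14.4 FPKM. In every other library Des was at most 0.974 FPKM, so the level sums partly rest on that value. Of 12 satellite glia and Schwann cell genes 5 rose and 1 fell (4 rose and 4 fell under quantile normalization), and of 6 tested skeletal muscle genes none passed. Erythrocyte sums ran from 1302 to 7827 FPKM and were highest in dKO SNI 1, with 4 of 7 genes higher after axotomy. Of the 10 platelet genes 4 were tested and 1, Pf4, which macrophages also express, rose (2.82), while the platelet receptor subunits Gp9, Gp6 and Gp1ba were at most 0.846 FPKM. A list of 7 granule genes of bone marrow myeloid precursors, added after the values were seen, rose in full (75.9 to 120 FPKM summed in sham, 175 to 851 FPKM in SNI), with Mpo at 2.38 and Elane at 2.82. All 12 cell cycle genes rose too, with Prc1 at 2.39. The part of these cells in the endothelial values was not tested.

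**Figure D5:**
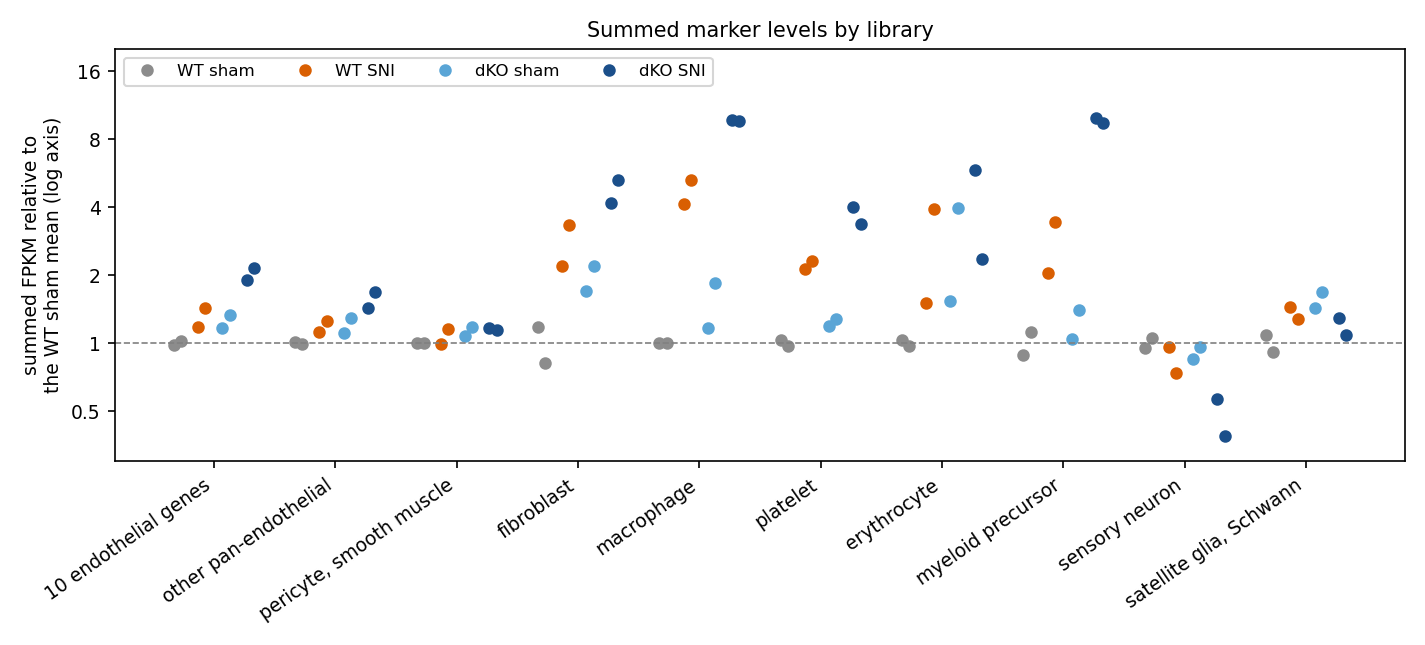
Summed FPKM of each marker list relative to its WT sham mean (vertical axis, logarithmic), by list (horizontal axis) and library, with colours for the 4 groups. The 10 endothelial genes summed to 82.3 and 92.9 FPKM in dKO SNI, and the macrophage, fibroblast and myeloid precursor sums were farther above their WT sham means there. The WT sham mean of the pericyte and smooth muscle list includes Des at 14.4 FPKM in WT sham 2.

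Likeness over the 8 libraries was measured as the Pearson r of log2(FPKM + 1) with the mean standardised profile of the 10 genes, among 7624 other genes with a mean of at least 5 FPKM. The most alike were Map2k3, Pmf1, Prkrir, Zbtb7b, Slfn2, Lsp1, Pts and Stfa2l1 (r of 0.970 to 0.981), none of them on the endothelial lists. The limit of 5 FPKM barred listed genes such as Cd93, Erg, Slco2a1 and Clec14a, so their absence here says nothing about their likeness. The least alike were Rsrc1, Golga7b, Ddhd2 and Vps33a (r of -0.975 to -0.957). Within the set, each gene's r with the mean of the other 9 was 0.852 to 0.979 for Plvap, Emcn, Pecam1, Eng, Cdh5, Vwf and Tek, 0.386 for Cldn5, 0.321 for Kdr and -0.618 for Flt1. In the other pan-endothelial list the nearest gene was Erg for Plvap, Emcn and Tek, Cd93 for Pecam1 and Cdh5, Sox17 for Cldn5 and Slco2a1 for Vwf. It was Clec14a for Eng, Rasip1 for Flt1 and Ushbp1 for Kdr. These values are descriptions over 8 libraries that share groups, surgery and genotype.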

How the data were processed

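Per the labels' protocols, RNA from the L4 and L5 ganglia was sequenced from paired-end TruSeq libraries. The authors deposited 1 table of FPKM values, whose columns were matched to samples by description. Tools named in the submitters' processing notes are HISAT2 2.0.4, StringTie 1.3.0 and edgeR, whose version they leave out. The same notes list GRCm38.p4 and mm10. The sources used here do not give the annotation, the strand or the handling of shared reads. FPKM totals per library were 278310 to 339920, read totals are unknown, and an FPKM value depends on the transcript models and on a library's abundant genes.

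The filter kept 12884 genes that reached 1 FPKM in 2 or more of the 8 libraries. From the deposited FPKM values log2(FPKM + 1) was fitted with limma 3.58.1 in R 4.3.3, with 1 mean per group, 4 residual degrees of freedom, empirical Bayes moderation with a trend, two-sided tests and Benjamini-Hochberg adjustment over all genes (threshold 0.05). The 7 contrasts were the 4 between single groups, the difference of the injury responses, and the averaged injury and genotype contrasts. A fold change on this scale understates that of low genes; ± is the standard error unless SD is stated. The fit was tested on simulated data. Replicate libraries correlated at 0.992 to 0.993 across genes and no 2 were identical. Alternatives were another pseudocount, other filters, scalings, robust moderation, a replicate block, single-comparison fits and each library left out.

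Named genes were all 10 endothelial genes, all ligands, the most and least alike genes and, per other list, at most the 4 smallest p for averaged injury and 3 for averaged genotype. Tie1, Erg, Esam, Epas1, Dll4, Kcne3, Sele, Ackr1, Prox1, Pdgfrb, Gp9, Gp6 and Gp1ba were named after their values were known. The members and lists were chosen with earlier results of these data known.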

Additional observations from a re-analysis of the deposited data

How the results depend on the processing

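The 6 endothelial genes called after axotomy (averaged) became 5 to 8 over the settings that kept all libraries and all 10 genes, and 5 to 6 with each library left out; the 8 came from quantile normalization, with 7 higher and Flt1 lower. In that contrast the median of the endothelial genes exceeded that of all genes by 0.36 to 0.57 over all settings. The 0.57 came from the filter at a mean of at least 5 FPKM, where only 5 of the 10 genes were tested. With all 10 genes the largest excess was 0.52 (pseudocount of 0.1). The averaged genotype count of 4 was 1 without the filter on low values, 2 after rescaling to TPM and 0 to 4 with each library left out. Injury in WT, with 2 calls, gave 1 without the filter, 1 at a mean of at least 5 FPKM (where only 5 of the 10 genes were tested), 0 under quantile normalization, 0 after rescaling to TPM and 0 to 5 with each library left out. Injury in dKO, with 6 calls, gave 2 to 6 with each library left out. Genotype after SNI, with 3 calls, gave 0 without the filter and 0 to 3 with each library left out. The cause of these shifts was not tested, apart from the genes a stricter filter removes.

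Kdr, at an averaged injury change of 0.00, took -0.0154 (median centring), -0.1766 (quantile normalization), -0.1295 (TPM) and -0.0490 to 0.0499 with each library left out, and its averaged genotype difference took -0.0655 (quantile normalization), -0.0375 (TPM) and -0.0210 to 0.0780. The WT injury change of Cldn5 ran from -0.3229 to 0.1421 with each library left out. Where leaving out a library left a group with 1, that library was assumed to vary like the others.

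A replicate block gave 5 calls for injury in WT instead of 2, and 7 and 3 for the averaged contrasts instead of 6 and 4. Deviations of same-numbered libraries correlated at -0.188 to 0.254, so the numbers were not shown to pair libraries.

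Over all genes, the count for averaged genotype (2866) was 1142 without the filter and 416 to 3055 with each library left out, and that for genotype after SNI (3106) was 1892 and 9 to 3082. Injury in WT (2967) gave 1869 at a mean of at least 5 FPKM and 1099 to 3030 with each library left out, injury in dKO (6236) gave 3880 and 3712 to 6200, and averaged injury (7092) gave 4337 at that filter. Genotype in sham (20) ranged from 6 without the filter to 55 with a pseudocount of 0.1, and the difference of injury responses (7) from 3 at the stricter filter to 20 without WT sham 1. Rescaling to TPM moved the median of all genes to -0.18 for injury in dKO, -0.15 for genotype after SNI and -0.11 for averaged injury. Its share of calls that were higher was 45.5% for injury in WT (59.3% unscaled, 49.9% median-centred and 45.9% by quantiles), 34.7% for injury in dKO (49.2%), 81% for genotype in sham (60%), 27.7% for genotype after SNI (44.2%) and 57.1% for the difference of injury responses (85.7%). Of the 121 genes of all lists called for averaged injury and the 75 for averaged genotype, none changed sign under these scalings, and 110 and 64 were still called under quantile normalization.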
